A study of Mus musculus with 8 samples.

Results

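Ceacam10 and 5 other genes of the carcinoembryonic antigen (CEA) family were followed in mouse hematopoietic stem cells after treatment with G-CSF (granulocyte colony-stimulating factor), which drives neutrophil production. The 5 others were Ceacam1, Ceacam2, Ceacam16, Ceacam18 and Ceacam19. All were taken by symbol from the probe sets that the platform annotation gives to 1 gene, and were 6 of the 19938 genes so measured. Each of the 6 had 1 probe set, so the rule of keeping a gene's brightest probe set made no choice among them. The family was chosen by the values of Ceacam10 itself, already known to be higher on the G-CSF arrays, so that contrast is described for these genes and is no independent evidence. Of the 8 arrays, 4 held RNA from mice given G-CSF under the skin for 36 h at 125 mcg per kg and 2 doses a day, and 4 from mice given PBS (saline) for 36 h. Each array held KSL SLAM cells pooled from the bone marrow of 5 to 10 mice, sorted as negative for lineage markers, CD48 and CD41 and positive for c-Kit, Sca-1 and CD150. The labels call the samples of a group independent and give no strain, age or genotype.

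CEA family proteins are built from immunoglobulin-like domains, and in the mouse their genes have multiplied on chromosome 7. CEACAM1 is a transmembrane adhesion receptor of epithelium, endothelium, platelets and leukocytes whose long cytoplasmic form carries inhibitory tyrosine motifs that recruit the phosphatases SHP-1 and SHP-2, and in the mouse it restrains G-CSF receptor signalling in granulocyte development. CEACAM2 is a mouse relative of CEACAM1 found on platelets, CEACAM10 is a short secreted mouse protein without a membrane anchor, and CEACAM16 is a secreted protein of the tectorial membrane of the inner ear. CEACAM18 and CEACAM19 are less studied members.

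Of the 6 genes, 5 had promoters in the RefSeq table used here: Ceacam10, Ceacam1, Ceacam2, Ceacam18 and Ceacam19. The 250 bases before the annotated starts of Ceacam10, Ceacam1 and Ceacam2 are printed because the first pair had the highest fold changes of the family and their upstream sequences are close to identical, whereas Ceacam2 carries a related sequence. They lie in GRCm38.p6 at chr7:24776917-24777166 on the plus strand (Ceacam10), chr7:25477626-25477875 on the minus strand (Ceacam1) and chr7:25540005-25540254 on the minus strand (Ceacam2). RefSeq lists a second Ceacam10 start whose upstream stretch, chr7:24776954-24777203, overlaps the first, and the first was used. Capitals mark aligned bases that differ from Ceacam1 in the Ceacam10 line and from Ceacam10 in the other lines.
Ceacam10: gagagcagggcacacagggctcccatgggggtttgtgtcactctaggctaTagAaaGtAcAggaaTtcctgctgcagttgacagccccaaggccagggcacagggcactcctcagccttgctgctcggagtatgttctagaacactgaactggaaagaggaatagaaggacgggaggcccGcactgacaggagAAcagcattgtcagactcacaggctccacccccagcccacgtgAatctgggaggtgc
Ceacam1: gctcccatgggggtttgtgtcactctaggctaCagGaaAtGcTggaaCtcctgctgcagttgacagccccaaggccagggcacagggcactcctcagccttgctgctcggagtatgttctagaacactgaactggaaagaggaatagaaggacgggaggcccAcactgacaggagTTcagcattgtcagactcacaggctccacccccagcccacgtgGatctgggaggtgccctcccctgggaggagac
Ceacam2: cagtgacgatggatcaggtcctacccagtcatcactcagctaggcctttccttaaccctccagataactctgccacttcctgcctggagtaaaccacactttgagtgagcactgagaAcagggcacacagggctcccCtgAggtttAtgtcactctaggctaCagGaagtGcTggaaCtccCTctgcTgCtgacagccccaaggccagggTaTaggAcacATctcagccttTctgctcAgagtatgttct

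In a local alignment, 232 bases of the Ceacam10 and Ceacam1 stretches aligned with no gap, of which 222 were identical (95.7%). They differed at 10 positions, and 6 of these lay in the window centred 187.5 bases before the Ceacam10 start, where 76% of the bases were identical. Ceacam10 and Ceacam2 aligned over 137 bases with 117 identical (85.4%) and 1 gap base. That alignment ran from the first base of the Ceacam10 stretch to the last base of the Ceacam2 stretch. The cut at 250 bases therefore limited its length, as it did for Ceacam1. Against Ceacam18 and Ceacam19 the best alignments of the Ceacam10 stretch were only 10 and 8 bases long. The search for motifs covered both strands of the same 250 bases. GAGGAA, a core of sites bound by the myeloid factor PU.1, occurred 94 bases before the Ceacam10 start and 112 bases before the Ceacam1 start, within the shared stretch, and in 23.3% of all 32851 RefSeq promoter windows of this length. The letters TTCNNNGAA of STAT factors, present in 7.02% of all windows, had no match in those of Ceacam10, Ceacam1 and Ceacam2. The same held for TTGCNNAA of C/EBP factors, present in 9.56% of all windows, and for TATAAA of core promoters, present in 12.4%. The Ceacam19 window held TTCCCTGAA, a match to the STAT letters, 199 bases before its start, and TTGCTCAA, a match to the C/EBP letters, 143 bases before it. The Ceacam18 window held TTGCAGAA, a match to the C/EBP letters, 14 bases before its start and TATAAA 154 and 112 bases before it. The GAGGAA letters were absent from the Ceacam2, Ceacam18 and Ceacam19 windows. The Ceacam2 window, however, aligned to Ceacam10 only as far as 113 bases before the Ceacam10 start. The part of Ceacam2 that would match the Ceacam10 GAGGAA, 94 bases before the Ceacam10 start, was outside that window and was not searched.

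**Figure D1:**
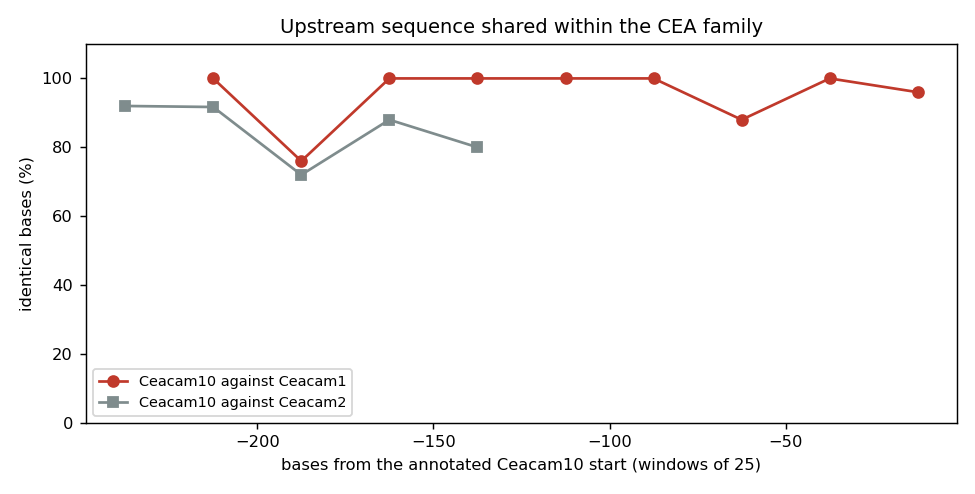
The x axis gives the position from the annotated Ceacam10 start in windows of 25 bases and the y axis the percent of aligned bases that were identical to Ceacam1 (circles) or Ceacam2 (squares), for windows with at least 24 aligned bases. Ceacam1 was between 76% and 100% identical, with 6 of the 9 windows at 100%, and Ceacam2 between 72% and 92%. The squares stop 137.5 bases before the Ceacam10 start because the printed Ceacam2 stretch reaches its end there.

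Values are given as the log2 of the deposited array intensity, on which a difference of 1 is a doubling. PBS replicate 3 differed most from the rest, with an interquartile range of gene values of 1.68 against 2.42 to 2.80 in the others and correlations with them of 0.883 to 0.903. Kit, the gene of c-Kit, averaged 10.35 ± 0.12 in the G-CSF arrays and 10.70 ± 0.20 in the PBS arrays, and Slamf1, the gene of CD150, 6.78 ± 0.52 and 6.62 ± 0.55 in the same order (SD, n = 4 each). Ly6a, the gene of Sca-1, was not analysed here. Cd48, whose protein the sort excludes, had 7.84 ± 0.79 in the G-CSF arrays and 7.19 ± 0.44 in the PBS arrays (SD, n = 4 each).

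Ceacam10 had the largest fold change of the 27 family genes measured here. Its log2 intensity stood at 7.02, 7.86, 6.74 and 7.24 in G-CSF replicates 1 to 4, and at 5.24, 4.54, 4.67 and 4.75 in PBS replicates 1 to 4. All 4 G-CSF arrays lay above all 4 PBS arrays, and the lowest G-CSF array exceeded the highest PBS array by 1.5. The means were 7.21 ± 0.48 in the G-CSF arrays and 4.80 ± 0.30 in the PBS arrays (SD, n = 4 each), a log2 fold change of 2.42 ± 0.25 (SE), or 5.34-fold. On the linear scale the intensities were 107 to 233 after G-CSF and 23.2 to 37.7 after PBS. The PBS values lay below the median probe set of an array, 47.0 to 54.8. No detection call was used that would say whether Ceacam10 was above background there, so the size of its fold change is uncertain. Among all 19938 genes its log2 fold change ranked 14 from the highest, and the gap between its groups ranked 5.

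Ceacam10 was the 1 of the 6 genes past an adjusted p of 0.05 in a limma fit over all genes, where 19 genes, or 0.0953%, were higher at that threshold and 0 were lower. At an unadjusted p under 0.05 the same limma fit had 6.07% of genes higher and 2.94% lower, and among the 6 genes these were 2 higher, Ceacam10 and Ceacam1, and 0 lower. Ceacam10 was also the 1 of the 6 whose groups did not overlap, beside 3.37% of all genes with the G-CSF arrays above and 2.78% with the G-CSF arrays below. Since this contrast led to the choice of the family, these counts are a description. With any 1 of the 8 arrays left out Ceacam10 still passed, with log2 fold changes of 2.20 to 2.58. It had 2.20 without G-CSF replicate 2, its brightest array, and 2.38 without PBS replicate 3.

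Ceacam1, the inhibitory receptor, stood at 8.66, 8.88, 7.49 and 7.35 in G-CSF replicates 1 to 4, and at 7.09, 6.83, 5.65 and 7.39 in PBS replicates 1 to 4. G-CSF replicates 1 and 2 were high, G-CSF replicates 3 and 4 lay close to the highest PBS array, and the groups overlapped by 1 array, G-CSF replicate 4. The means were 8.10 ± 0.79 in the G-CSF arrays and 6.74 ± 0.76 in the PBS arrays (SD, n = 4 each), a log2 fold change of 1.36 ± 0.43 (SE), or 2.56-fold, and Ceacam1 did not pass the threshold. PBS replicate 3 was its lowest array, and without it the log2 fold change was 0.99. Its fold change ranked 105 among all genes.

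Ceacam2, the close relative of Ceacam1, did not separate the groups. It stood at 4.82, 4.85, 4.39 and 5.47 in G-CSF replicates 1 to 4, and at 5.03, 3.33, 5.42 and 4.84 in PBS replicates 1 to 4. The SD was 0.44 among the G-CSF arrays and 0.92 among the PBS arrays, where PBS replicate 2 was low. The log2 fold change of 0.22 ± 0.40 (SE) became -0.22 without PBS replicate 2, 0.03 without G-CSF replicate 4 and 0.48 without PBS replicate 3.

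Ceacam16, the inner ear protein, stood at 5.54, 5.10, 5.47 and 5.72 in G-CSF replicates 1 to 4, and at 5.60, 5.76, 5.73 and 5.31 in PBS replicates 1 to 4. Ceacam18 stood at 4.86, 4.51, 4.94 and 4.60 in G-CSF replicates 1 to 4, and at 4.58, 5.02, 5.70 and 4.93 in PBS replicates 1 to 4. Ceacam19 stood at 4.55, 4.33, 4.71 and 4.55 in G-CSF replicates 1 to 4, and at 4.75, 4.65, 5.12 and 4.47 in PBS replicates 1 to 4. The groups of these 3 genes overlapped, and none passed the threshold. Their log2 fold changes were -0.14 ± 0.19 (SE) for Ceacam16, -0.33 ± 0.24 (SE) for Ceacam18 and -0.21 ± 0.19 (SE) for Ceacam19. PBS replicate 3 was the highest array of Ceacam18 and Ceacam19, and without it their log2 fold changes were -0.11 and -0.09. With 1 array left out at a time that of Ceacam16 ran from -0.24, without PBS replicate 4, to -0.02, without G-CSF replicate 2. The linear intensities of Ceacam2, Ceacam16, Ceacam18 and Ceacam19 ran from 10.0 to 54.2, where the median probe set of an array had 47.0 to 54.8, and no detection call was used here that would say whether these 4 transcripts were measured above background.

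**Figure D2:**
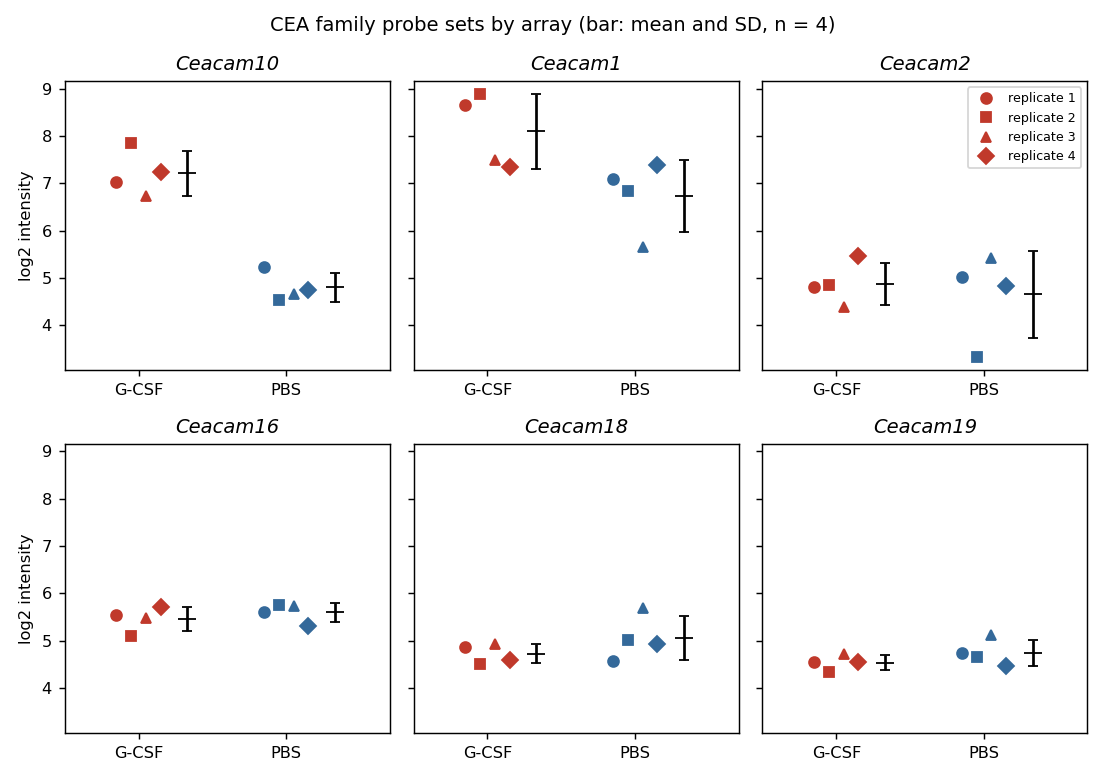
Each panel gives the log2 intensity of 1 gene (y axis) on the G-CSF and PBS arrays (x axis), with a symbol for each replicate and the mean and SD beside it. The Ceacam10 G-CSF arrays, from 6.74 to 7.86, sit above its PBS arrays, from 4.54 to 5.24, whereas the groups of the other 5 genes overlap.

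The rest of the family comprised the other Ceacam genes and the pregnancy-specific glycoproteins (Psg genes), secreted proteins that the mouse placenta produces. None of the 9 other Ceacam genes and none of the 12 Psg genes measured passed the threshold in either direction (limma). At an unadjusted p under 0.05 the limma counts were 0 higher and 1 lower Ceacam gene and 0 Psg genes. Over all genes the shares were 6.07% higher and 2.94% lower. The median log2 fold change was -0.17 for the other Ceacam genes, from -0.39 to 0.00, and -0.22 for the Psg genes, from -0.42 to -0.02, beside -0.07 for all genes. Psg20, Psg23 and Psg25 further share a probe set with several symbols that was left out. Ceacam17, Psg21, Psg24, Psg30 and Psg31 had no probe set of their own symbol and were not analysed here.

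PBS replicate 3 was the highest of the 8 arrays for 19 of these 21 genes (90.5%), as it was for 42.1% of all genes. Without it the median log2 fold change of the 21 genes was -0.09, against -0.19 with it, and 15 of the 21 were negative, against 20 with it. Without PBS replicate 1 that median was -0.29. Over all 8 arrays the lowest fold changes were those of Psg19 with -0.42 ± 0.20 (SE) and Ceacam5 with -0.39 ± 0.16 (SE), and the highest those of Ceacam3 with 0.00 ± 0.15 (SE) and Psg16 with -0.02 ± 0.18 (SE). This order changed with several arrays left out. Without PBS replicate 3 Ceacam5 was lowest with -0.32 and Psg19 had -0.25. Psg16 with 0.11 and Psg28 with 0.06 then stood above Ceacam3 with 0.03. Ceacam20 was lowest without G-CSF replicate 1 (-0.50) or G-CSF replicate 3 (-0.45). Psg26 was lowest without PBS replicate 1 (-0.50) or PBS replicate 4 (-0.49). Ceacam5 stood at 2.57, 2.69, 2.51 and 2.63 in G-CSF replicates 1 to 4, and at 2.97, 2.87, 3.21 and 2.94 in PBS replicates 1 to 4, so its groups did not overlap, with the G-CSF arrays lower. Psg19 was the other of the 2 genes so separated, with the G-CSF arrays at 3.45, 3.73, 3.71 and 3.75 and the PBS arrays at 3.88, 3.83, 4.59 and 4.01. Of all genes 2.78% were so separated with the G-CSF arrays lower. The array means ran from 3.52 to 4.21 for the other Ceacam genes and from 3.55 to 4.29 for the Psg genes. The median gene of an array had 5.74 to 5.89, and no detection call was used that would say whether these genes were measured above background.

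**Figure D3:**
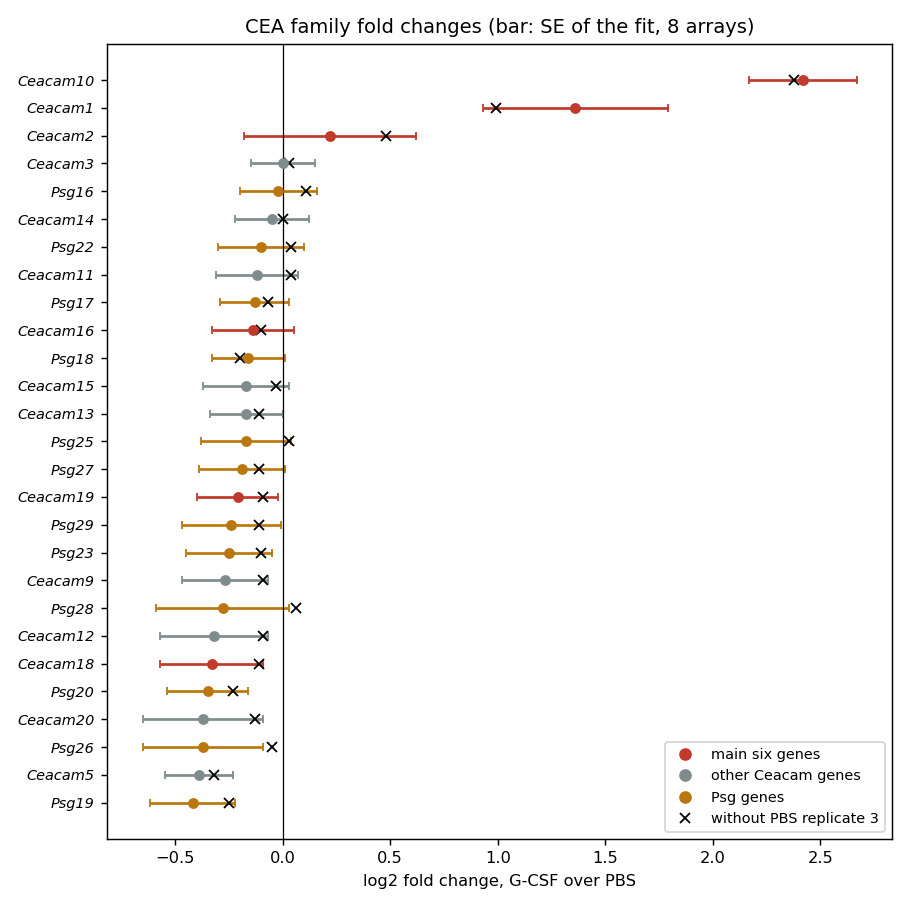
The x axis gives the log2 fold change of G-CSF over PBS for 27 family genes (y axis), with the SE of the limma fit over 8 arrays, and crosses give the value without PBS replicate 3. Ceacam10 at 2.42 and Ceacam1 at 1.36 stand to the right, and the other 25 genes lie between -0.42 and 0.22.

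Neutrophil transcripts also had higher values on the G-CSF arrays. Of 20 listed markers 18 were measured, and the log2 fold change was positive for all 18, the median being 1.93. Of all 19938 genes 8321 were positive. None of the markers passed the threshold (limma), and 18 were higher at an unadjusted p under 0.05, beside 6.07% of all genes. Their mean log2 intensity stood at 10.54, 10.52, 8.24 and 8.97 in G-CSF replicates 1 to 4, and at 8.13, 7.03, 7.31 and 7.29 in PBS replicates 1 to 4. Stfa2, a stefin of granulocytes, averaged 8.13 ± 2.03 in the G-CSF arrays and 3.57 ± 0.17 in the PBS arrays (SD, n = 4 each). The sort excluded lineage-positive cells. Itgam, which encodes CD11b, averaged 7.77 ± 0.69 in the G-CSF arrays and 6.09 ± 0.65 in the PBS arrays, and Ly6g 7.19 ± 0.94 and 5.82 ± 1.17 in the same order (SD, n = 4 each). Of 7 measured genes for surface proteins that the sort excludes, 4 had positive and 3 negative log2 fold changes, with a median of 0.10. Besides Itgam, Ly6g and Cd48, these were 0.10 for Itga2b (CD41), -0.01 for Cd3e, -0.25 for Cd4 and -0.28 for Cd8a. In such bulk samples more cells of a type and more RNA per cell cannot be told apart.

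Ceacam1 and Ceacam10 were set beside these markers. Ceacam1 was highest in G-CSF replicates 1 and 2, the arrays with the highest marker means, and with the marker mean as a covariate its log2 fold change was 0.07 ± 0.59 (SE), against 1.36 without it. Ceacam10 had a log2 fold change of 1.74 ± 0.38 (SE) with the covariate, against 2.42 without it, and no longer passed the threshold, which no gene did in that limma fit (848 at an unadjusted p under 0.05). G-CSF replicate 3 and PBS replicate 1 had nearly the same marker mean, 8.24 and 8.13. Between this pair Ceacam10 was 6.74 in the G-CSF array and 5.24 in the PBS array, and Ceacam1 was 7.49 in the G-CSF array and 7.09 in the PBS array. Single markers differed within the pair in both directions. In the G-CSF and the PBS array, Stfa2 had 5.89 and 3.32 and Cxcr2 6.65 and 5.49, but Stfa3 had 3.56 and 5.32 and Ly6g 6.12 and 7.26. A near-equal marker mean therefore does not make this pair alike in neutrophil transcripts. The marker means ran from 8.24 to 10.54 in the G-CSF arrays and from 7.03 to 8.13 in the PBS arrays, without overlap. The covariate fit therefore cannot tell the marker mean and the treatment apart. The difference between the responses of the 2 genes was not tested.

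**Figure D4:**
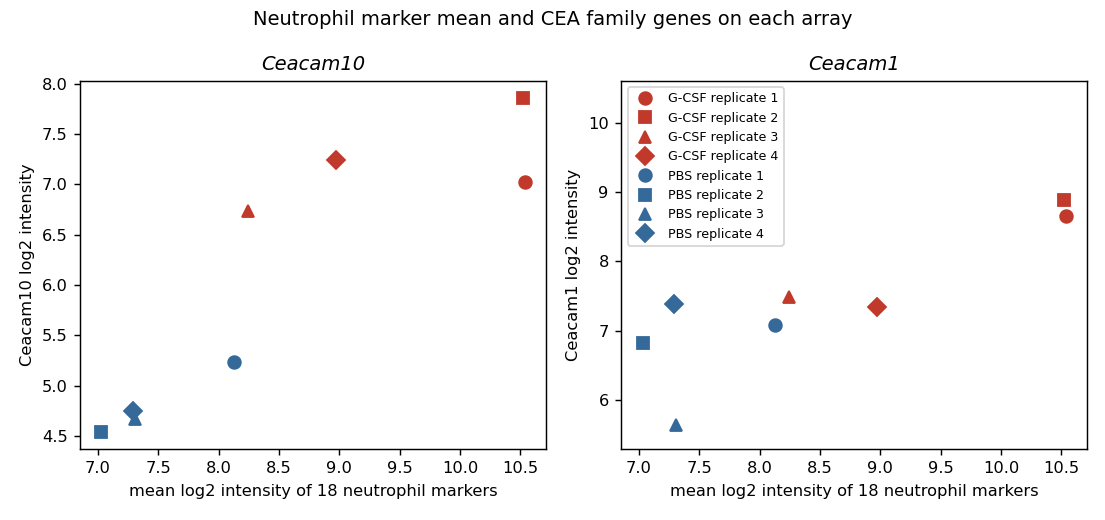
The x axis gives the mean log2 intensity of 18 neutrophil markers and the y axis that of Ceacam10 (left) or Ceacam1 (right), with a point for each of 4 G-CSF and 4 PBS arrays. G-CSF replicate 3 and PBS replicate 1, at marker means of 8.24 and 8.13, had Ceacam10 at 6.74 and 5.24 and Ceacam1 at 7.49 and 7.09. Single markers differed between this pair of arrays in both directions.

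Markers of granulocyte-monocyte progenitors, the earlier stage of the same lineage, had positive fold changes in 8 of 8 genes, with a median of 1.02. Of all 19938 genes 8321 were positive. None of the 8 markers passed the threshold (limma, 4 higher at an unadjusted p under 0.05, beside 6.07% of all genes). Without PBS replicate 4 the median was 0.54. Their mean ran from 7.22 to 7.96 in the G-CSF arrays and from 5.93 to 7.43 in the PBS arrays. Of 7 epithelial markers, tested because several family proteins are epithelial, 3 were positive and 4 negative, with a range of -0.26 to 0.38 and array means of 5.54 to 5.67 in the G-CSF arrays and 5.39 to 5.84 in the PBS arrays. The 4 measured platelet and megakaryocyte markers of 5 listed had a median log2 fold change of -0.64, with array means of 6.50 to 7.51 in the G-CSF arrays and 7.01 to 8.47 in the PBS arrays. That median was -0.36 without G-CSF replicate 3 and -0.32 without PBS replicate 1. The part of these cell types in the values of the family was not tested. The neutrophil covariate cannot serve as such a test, since its values did not overlap between the groups.

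Of 15 genes listed for proteins that bind CEACAM1 or signal beside it, 12 were measured, 9 with a positive fold change. Of all 19938 genes 8321 were positive. The median log2 fold change of the 12 was 0.45, beside -0.07 for all genes. None of the 12 passed the threshold (limma, 4 higher at an unadjusted p under 0.05, beside 6.07% of all genes). Without PBS replicate 3 the median was 0.18, beside -0.02 for all genes. Csf3r, which encodes the G-CSF receptor, stood at 9.31, 9.49, 9.24 and 9.11 in G-CSF replicates 1 to 4, and at 7.59, 7.96, 8.51 and 7.93 in PBS replicates 1 to 4. The groups did not overlap, with a log2 fold change of 1.29 ± 0.21 (SE, limma adjusted p = 0.0585). The Src family kinase Fgr had the largest value of the list, 1.65 ± 0.27 (SE, limma adjusted p = 0.0639), and stood at 8.22, 7.88, 7.54 and 6.78 in G-CSF replicates 1 to 4, and at 6.17, 5.87, 5.90 and 5.89 in PBS replicates 1 to 4. The phosphatase genes had log2 fold changes of 0.47 ± 0.29 (SE) for Ptpn6, which encodes SHP-1, and 0.32 ± 0.22 (SE) for Ptpn11, which encodes SHP-2, and without PBS replicate 3 these were 0.17 and 0.19. That of Ptpn11 was 0.21 without G-CSF replicate 3. Stat3, the transcription factor downstream of the receptor, had 0.73 ± 0.26 (SE), and 0.44 without PBS replicate 3. The lowest value over all 8 arrays was that of the insulin receptor gene Insr, with -0.38 ± 0.30 (SE). It ran from -0.68 without PBS replicate 1 to -0.24 without PBS replicate 2, and without PBS replicate 3 Havcr2 was lowest with -0.36, where Insr had -0.26. The other 3 genes of the list were not analysed here.

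On chromosome 7, Ceacam10 lies between Cd177 and Gm5893 in the order of measured genes, and Ceacam1 and Ceacam2 follow 24 and 25 measured genes further on. Of the 10 measured genes on either side, none of the 20 passed the threshold (limma), and their median log2 fold change was -0.11. At an unadjusted p under 0.05 in the limma fit there was 1 of the 20, beside 6.07% of all genes higher and 2.94% lower. The exception in size was the adjacent Cd177, a surface glycoprotein of neutrophils and a member of the neutrophil list above, with 1.88 ± 0.53 (SE). Cd177 stood at 9.20, 9.15, 6.54 and 7.70 in G-CSF replicates 1 to 4, and at 6.66, 5.51, 6.63 and 6.28 in PBS replicates 1 to 4. Its G-CSF replicate 3 lay within the PBS range, where that of Ceacam10 did not. The other 19 neighbours had log2 fold changes between -0.39 and 0.35, and between -0.30 and 0.25 without PBS replicate 3. The upper end, 0.35 for Arhgef1, was -0.03 without that array. Those next to the pair, Lypd11 and Gm5893, had -0.30 ± 0.26 and -0.16 ± 0.20 (SE). Without PBS replicate 3 Lypd11 had -0.02, and without PBS replicate 1 Gm5893 had -0.03. The median of the 20 neighbours was -0.03 without PBS replicate 3.

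**Figure D5:**
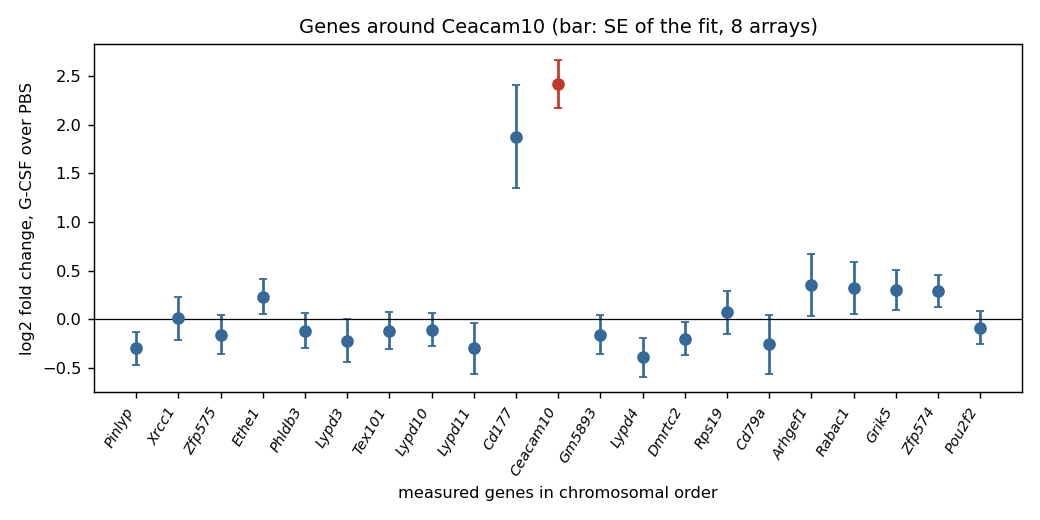
The y axis gives the log2 fold change of G-CSF over PBS with the SE of the limma fit over 8 arrays for Ceacam10 and the 10 measured genes on either side in chromosomal order (x axis). Ceacam10 at 2.42 and the adjacent Cd177 at 1.88 stand above the other 19 genes, which lie between -0.39 and 0.35 over all 8 arrays.

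Genes were ranked by how closely their array values followed those of Ceacam10, as the root mean square difference of mean-centred log2 values over the 8 arrays. The median over 18183 named genes was 1.32, and Ceacam10 itself varied by 1.26 around its mean. The 10 nearest were Mgst1, a microsomal glutathione transferase (0.36), Anxa1, an annexin abundant in neutrophils (0.39), the kinetochore gene Cenph (0.39), the matrix protein gene Tgfbi (0.40), the myeloid lectin gene Clec5a (0.45), S100a6 (0.48), the lactoferrin gene Ltf (0.49), the receptor chain gene Il10ra (0.50), Pla2g7, which encodes the platelet-activating factor hydrolase (0.50), and Wfdc18 (0.51). Anxa1 and Ltf belong to the neutrophil list. With the group means removed, Mgst1 differed from Ceacam10 by 0.26 and Pla2g7 by 0.32, the lowest of these 10. The rest ran from 0.35 for Tgfbi to 0.49 for Ltf. Ceacam10 itself scattered to a similar extent around its group means, with an SD of 0.48 in the G-CSF arrays and 0.30 in the PBS arrays. Mgst1 stood at 8.91, 9.17, 7.91 and 8.47 in G-CSF replicates 1 to 4, and at 7.45, 6.34, 6.62 and 6.35 in PBS replicates 1 to 4, and so shared with Ceacam10 a high G-CSF replicate 2 and PBS replicate 1 and a low G-CSF replicate 3. Within the family Ceacam1 was nearest, with 0.79 and rank 125 of the 18183 genes, followed by Ceacam2 with 1.24 and Ceacam16 with 1.37. The likeness rests largely on the shared difference between the groups and is a description of these 8 arrays.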

How the data were processed

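Expression was measured on MoGene 1.0 ST arrays after NuGen Ovation amplification, as the labels' protocols state. Each deposited value is a linear intensity of a probe set on an array, made with RMA per the submitters' processing notes. Which RMA software and options served is not given in the sources used here. Intensities ran from 2.15 to 16162, and log2 was taken before every fit. Of 35556 probe sets, 21789 carried 1 symbol, 1621 several and 12146 none. The brightest probe set per gene left 19938 genes. Scanner files, detection calls and scan dates were not used here, so no batch could be examined. Whether probes of Ceacam10 also bind the transcripts of its relatives was not tested. The number of arrays limits the precision. The 4 samples per group were compared with limma 3.58.1 (R 4.3.3, lmFit and eBayes, 2-sided, Benjamini-Hochberg over all genes, threshold 0.05), without covariates or a filter on dim genes, and the fit was tested on simulated arrays. Promoters were aligned with Biopython 1.88 (local, match 2, mismatch -3, gap opening -5, extension -2). Gene order and promoters are RefSeq's (GRCm38.p6). No build is stated for the array annotation, so gene coordinates are not printed. RefSeq protein sequences were not used here. The family, the gene lists and the tests were chosen with earlier results of these data known. Named genes are the 6 family genes, all, the extreme or otherwise chosen members of the lists, the neighbours, and the 10 genes most like Ceacam10. Those 10 were taken after leaving out histones, small RNAs, antigen receptor segments and names that are predictions or accessions. Chosen members that were not extreme include Csf3r, Ptpn6, Ptpn11, Stat3, Itgam and Ly6g. Alternatives were other moderation, a replicate block, array weights, brighter genes only, an offset of 16, quantile normalization with and without PBS replicate 3, median centring, mean of probe sets, all probe sets, a threshold of 0.1 and leaving out each array. The neutrophil covariate, and leaving out each array for genes outside the 6, were added after seeing the data.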

Additional observations from a re-analysis of the deposited data

How the results depend on the processing

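Ceacam10 had a positive log2 fold change under all 19 alternatives and passed the threshold under 17 of them. It did not pass when all 35556 probe sets entered the fit, where its log2 fold change was 2.42 as before, or with the neutrophil marker mean as a covariate, where it was 1.74. With 1 array left out at a time it ranged from 2.20 to 2.58. The log2 fold change was 1.91 with an offset of 16. The count of genes past the threshold, 19 as reported, was 40 with array weights, 7 after quantile normalization, 52 at a threshold of 0.1, 0 with all probe sets (limma, 2743 at an unadjusted p under 0.05) and 0 with the neutrophil covariate (limma, 848 at an unadjusted p under 0.05). Leaving out 1 array at a time gave 3 to 31 genes, the lowest count without G-CSF replicate 2 and the highest without G-CSF replicate 3, with 7 without G-CSF replicate 4 and 10 without G-CSF replicate 1. The adjustment with all probe sets ran over 35556 tests, against 19938 in the main fit. The SE of the Ceacam10 log2 fold change also differed, 0.27 with all probe sets against 0.25 in the main fit. The cause of these shifts was not tested.

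Ceacam1 was positive and Ceacam18 and Ceacam19 negative under every alternative that gave a value, whereas Ceacam2 changed sign in 2 of 18 and Ceacam16 in 1 of 18. None of these 5 genes passed under any alternative. Outside the neutrophil covariate Ceacam1 ranged from 0.91 to 1.60. Among the 9969 brighter genes the 4 dim genes Ceacam2, Ceacam16, Ceacam18 and Ceacam19 had no value. With the replicate number as a block the Ceacam10 log2 fold change was 2.42 and 23 genes passed. The deviations of G-CSF and PBS arrays of the same number correlated over genes at -0.0254, 0.0559, 0.0623 and 0.135 for numbers 1 to 4. Of the 4 G-CSF arrays 1 correlated best with its own number. Whether samples of the same number shared a batch cannot be told from these values. Without detection calls, dim probe sets limit what can be said of the 4 dim genes and of Ceacam10 on the PBS arrays. The same limit holds for the dim genes among the other Ceacam and Psg genes.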
